A study of Homo sapiens with 59 samples.

Results

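A water extract of Zizyphi Fructus, the dried fruit of the jujube tree, was given at 500 µg/mL for 24 h to HepG2 cells, and the transcriptome was set against cells given the vehicle. HepG2 is a cell line from a human liver carcinoma that keeps part of the hepatocyte programme, including secretion of plasma proteins. The comparison took, by the labels, the 3 libraries of the 500 µg/mL treatment and the 3 vehicle libraries, out of 59 libraries in 20 groups of the series, and covered the 16641 genes with enough counts of the 60675 in the deposited table. The vehicle libraries came from HepG2 cells given DMSO for the same 24 h, at 0.1% according to the sample labels and at 2% according to the text of the series. The labels of the extract give no DMSO content, so the extract and any difference in solvent cannot be told apart. Further groups used here were the same extract at 100 and 20 µg/mL and a water extract of Pinelliae Tuber, the tuber of Pinellia, at 500 µg/mL, each in 3 libraries. All groups were the same line under the same culture protocol, and the labels do not say whether replicates were separate cultures, so p-values measure the spread between libraries, which may be technical.

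HepG2 cells are used to study genes by which the liver handles iron, zinc, amino acids and lipids. Hepcidin, the product of HAMP, is the liver hormone that lowers iron release into blood, and its gene is switched on by bone morphogenetic protein (BMP) signals through SMAD proteins, which also drive the ID genes and the feedback inhibitor SMAD7. Metallothioneins are small cysteine-rich proteins that bind zinc and copper, and their genes are switched on by zinc through the metal-sensing factor MTF1.

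Total counts ran between 27961394 and 30050044 in the 500 µg/mL libraries and between 24527014 and 25579687 in the vehicle libraries, so the treated libraries were the deeper ones. Transcripts of the mitochondrial genome made up 10.3%, 10.4% and 11.6% of counts at 500 µg/mL and 9.84%, 9.09% and 9.88% in vehicle. The 14 hepatocyte markers examined were all expressed, with summed levels of 47347 to 47873 CPM at 500 µg/mL and 46812 to 47486 CPM in vehicle, where CPM stands for counts scaled to library size and composition. Of 20 markers of other cell types, 12 were under 1 CPM in both groups, and CD3E, COL1A2, HBB, INS and PTPRC had no count in either. The summed level of these markers was 1908 to 2012 CPM at 500 µg/mL and 1674 to 1696 CPM in vehicle, and most of it came from LYZ (lysozyme), which averaged 1630 ± 52.5 CPM at 500 µg/mL and 1372 ± 6.37 CPM in vehicle (SD, n = 3 each, log2 change 0.25, adjusted p = 0.0185). The call of LYZ was lost in 4 of the 6 analyses without 1 library, and its part in the results below was not tested. All 59 libraries carry the same batch letter in their titles. The first number of those titles, whose meaning the labels do not give, is 4 for every Zizyphi Fructus library and A1 for vehicle, so a difference tied to that number cannot be told apart from one tied to the extract when vehicle is the baseline.

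Zizyphi Fructus at 500 µg/mL changed 601 genes against vehicle, most of them slightly. Of these, 347 rose and 254 fell (edgeR quasi-likelihood test, Benjamini-Hochberg adjusted p under 0.05 over all genes tested, 2-sided). The changed genes were 3.61% of the genes tested, 2.09% higher and 1.53% lower. The median log2 change was 0.25 among genes that rose and −0.18 among genes that fell, 41 genes changed by more than 0.5 and 12 by more than 1. The libraries of both groups did not overlap for 594 of the 601 genes, against 27.6% of all genes tested. The count depended on single libraries: it was 256 without vehicle replicate 1, 181 without vehicle replicate 2, and 293, 324 and 243 without replicates 1, 2 and 3 of the 500 µg/mL treatment, while it was 474 without vehicle replicate 3. All 601 genes were called in the same direction when the 3 libraries of other groups that stand apart were left out of the fit, which raised the count to 1237. RNA came from whole cultures, so a lower level of a transcript per cell and fewer cells expressing it cannot be told apart.

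Part of the difference from vehicle followed the base composition of the transcripts. The median GC content was 58.7% for genes that rose and 45.1% for genes that fell, against 49.9% for all genes tested. For each library, the log2 deviation of genes from their mean over all 59 libraries was set against GC content. The slope was 0.011 to 0.021 log2 units per 10 points of GC at 500 µg/mL and −0.063 to −0.030 in vehicle. Vehicle replicates 1 and 2, at −0.059 and −0.063, had the lowest slopes of the 59 libraries. The 2 lower doses had slopes between −0.001 and 0.033, so all 9 Zizyphi Fructus libraries lay above the 3 vehicle libraries. With expression corrected for this trend, 406 genes were called, 2.44% of those tested, 220 higher and 186 lower. Of the 601 genes, 310 were still called, 179 of the higher and 131 of the lower ones, in the same direction. In the following, a gene called against vehicle whose call was lost with the GC correction is named as such. Counts of called list members against vehicle stand beside a share of 3.61% over all genes tested. At that share a short list can hold few called members or none.

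**Figure D1:**
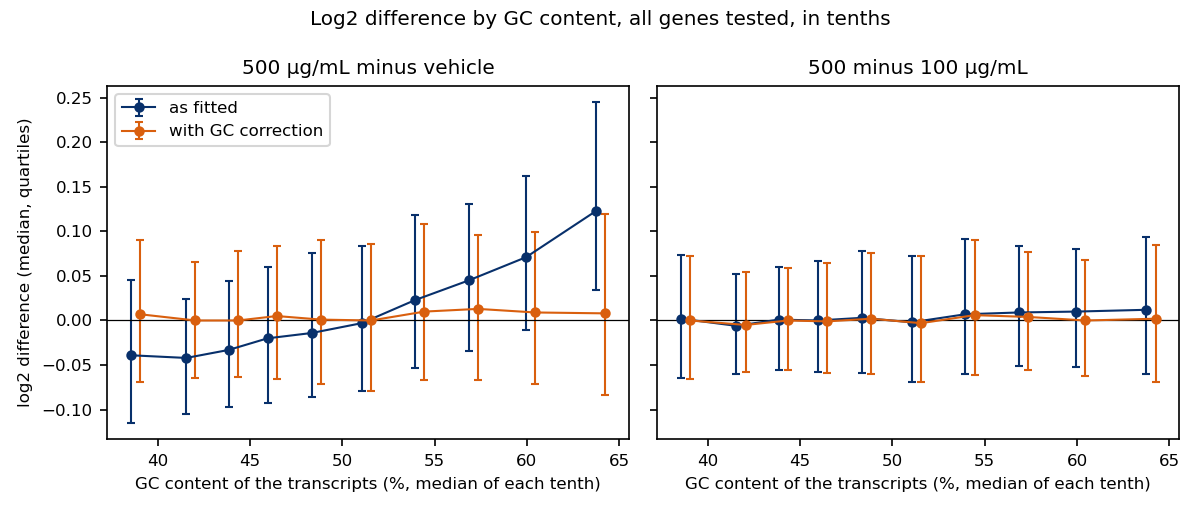
Median log2 difference (points) with quartiles (bars) of all genes tested with a known GC content, in 10 equal bins of GC content, for 500 µg/mL minus vehicle (left) and 500 minus 100 µg/mL (right), as fitted and with the GC correction. Against vehicle the medians climb with GC content, and between the doses they stay near 0.

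Hepcidin and its BMP-SMAD neighbours were lower at 500 µg/mL. HAMP (ENSG00000105697, chr19:35280716-35285143, plus strand, GRCh38) had 31.1, 31.3 and 29.9 CPM at 500 µg/mL, against 68.2, 66.0 and 63.9 CPM in vehicle. The 3 treated libraries lay close together. No overlap with vehicle was a condition for the largest falls, to which HAMP belongs. HAMP fell by 1.10 on the log2 scale (SE 0.068, adjusted p = 8e-17), and it was called under all 16 alternative analyses, with values between −1.13 and −1.08. Of 10 BMP-SMAD genes tested, 5 fell and 0 rose, with a median log2 difference of −0.27, against 0.007 for all genes. The 5 were called with the GC correction too, and 4 or 5 of them with each of the 6 libraries left out in turn.

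The ID proteins, which block the DNA binding of other helix-loop-helix factors, are early targets of BMP signals. ID3 had 44.7, 45.1 and 45.6 CPM at 500 µg/mL, against 58.8, 59.4 and 61.3 CPM in vehicle. ID2 had 119.9, 116 and 122 CPM at 500 µg/mL, against 149, 154 and 154 CPM in vehicle. The groups did not overlap for either gene, and the log2 changes were −0.41 for ID3 (SE 0.061, adjusted p = 3.01e-05) and −0.35 for ID2 (SE 0.046, adjusted p = 1.27e-06). SMAD9, a receptor-activated SMAD, had 20.0, 19.8 and 20.0 CPM at 500 µg/mL, against 24.3, 24.7 and 24.9 CPM in vehicle (log2 change −0.31, adjusted p = 0.00236). SMAD7 had 18.7, 17.8 and 19.2 CPM at 500 µg/mL, against 21.8, 22.0 and 21.6 CPM in vehicle (log2 change −0.23, adjusted p = 0.00703), and its adjusted p was 0.0524 without replicate 2 of the treatment. ID1 was not called against vehicle: it averaged 139.9 ± 12.6 CPM at 500 µg/mL and 158 ± 2.29 CPM in vehicle (SD, n = 3 each, adjusted p = 0.179). BMP6, SMAD6, ATOH8 and BAMBI were not called either.

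The bases upstream of HAMP are shown because they hold the 6-letter core GGCGCC of a BMP response element, in capitals here, 105 to 100 bases before the annotated start. They are chr19:35282278-35282527 on the plus strand, from RefSeq on GRCh38.p14, 5′ to 3′.
HAMP: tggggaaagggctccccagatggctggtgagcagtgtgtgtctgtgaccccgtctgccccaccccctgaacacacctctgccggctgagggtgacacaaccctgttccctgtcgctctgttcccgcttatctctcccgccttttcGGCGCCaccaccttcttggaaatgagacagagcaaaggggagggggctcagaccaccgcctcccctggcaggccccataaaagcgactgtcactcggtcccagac
The core, which reads the same on both strands, occurs in 16.4% of the 35116 promoter windows of the same length. It had no match in the 250 bases before the starts of ID2, ID3 and SMAD9.

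**Figure D2:**
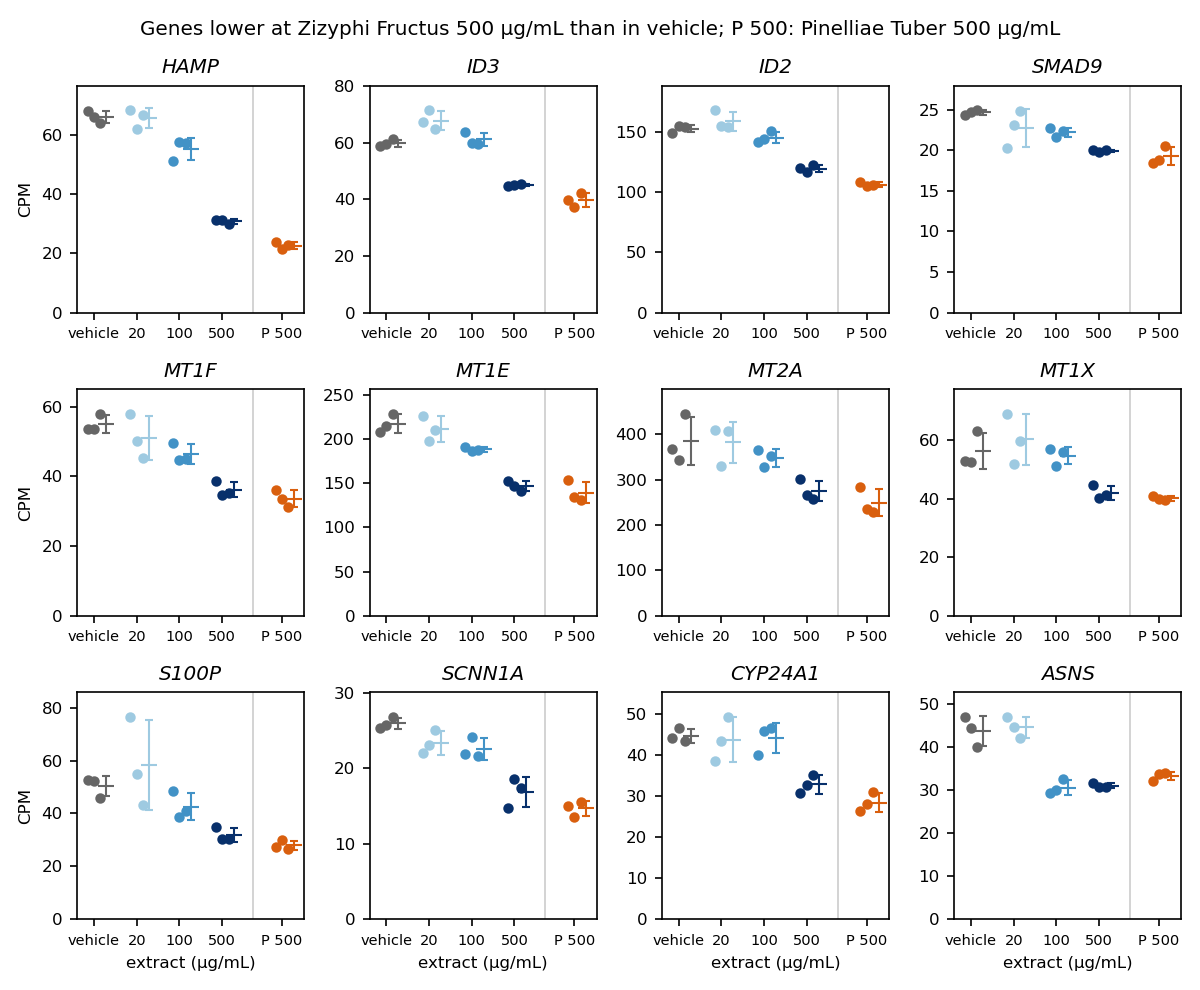
CPM in every library (points) with the mean and SD beside them (n = 3) for 12 genes lower at 500 µg/mL than in vehicle, across vehicle and Zizyphi Fructus at 20, 100 and 500 µg/mL, with Pinelliae Tuber at 500 µg/mL to the right of the grey line. HAMP, ID3, ID2, the metallothioneins, S100P, SCNN1A and CYP24A1 are lowest in both 500 µg/mL groups, while ASNS is equally low at 100 and 500 µg/mL.

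Metallothionein transcripts were lower at 500 µg/mL. Of 8 tested members of the list of metallothioneins and zinc export, 7 fell, the zinc exporter SLC30A1 among them, and 0 rose, with a median log2 difference of −0.49. Summed over the 7 metallothionein genes tested, the level was 611, 561 and 544 CPM at 500 µg/mL, against 774, 759 and 914 CPM in vehicle. No treated library reached the lowest vehicle library. The sum is given because these genes lie in a row on chromosome 16 and are close copies, so the estimated counts of single members are uncertain where reads could come from several.

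MT1F had 38.6, 34.7 and 35.3 CPM at 500 µg/mL, against 53.7, 53.5 and 58.0 CPM in vehicle (log2 change −0.61, SE 0.068, adjusted p = 5.6e-08). MT1E had 153, 146 and 141 CPM at 500 µg/mL, against 208, 215 and 229 CPM in vehicle (log2 change −0.57, SE 0.093, adjusted p = 0.000115). Both were called under all 16 alternatives. MT2A, a main metallothionein of human liver, had 301, 267 and 258 CPM at 500 µg/mL, against 368, 344 and 446 CPM in vehicle (log2 change −0.49, adjusted p = 0.0196). One vehicle library was well above the others, and without it the adjusted p of MT2A was 0.133; it was 0.0764 and 0.104 without replicates 2 and 3 of the treatment. Without that vehicle replicate 3, 3 members of the list were called, and 4 without replicate 2 or replicate 3 of the treatment.

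Among the other members, MT1G averaged 69.3 ± 2.83 CPM at 500 µg/mL and 97.2 ± 14.1 CPM in vehicle, and MT1X averaged 42.0 ± 2.32 CPM at 500 µg/mL and 56.2 ± 6.11 CPM in vehicle (SD, n = 3 each). MT1M was near the detection floor, at 0.764 ± 0.166 CPM at 500 µg/mL and 1.82 ± 0.506 CPM in vehicle. SLC30A1, the exporter that carries zinc out of the cell and is itself induced by zinc, had 112, 119 and 107 CPM at 500 µg/mL, against 129.6, 130.3 and 126 CPM in vehicle (log2 change −0.19, adjusted p = 0.00258). Of 11 zinc importers tested, 2 rose and 0 fell. SLC39A10 had 16.8, 18.1 and 17.2 CPM at 500 µg/mL, a mean of 17.4 ± 0.643 CPM, against a mean of 13.4 ± 0.412 CPM in vehicle (SD, n = 3 each), a log2 change of 0.38 (SE 0.067, adjusted p = 0.000416). SLC39A4, the intestinal zinc importer, rose by 0.21, and its call was lost with the GC correction (adjusted p = 0.289) and without vehicle replicate 2 (adjusted p = 0.0739).

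The 250 bases before the starts of MT2A (chr16:56608334-56608583) and MT1X (chr16:56682220-56682469), both on the plus strand in RefSeq on GRCh38.p14, are shown because the metal response element recurs in them. Its cores TGCACNC and TGCGCNC, searched on both strands, are in capitals.
MT2A: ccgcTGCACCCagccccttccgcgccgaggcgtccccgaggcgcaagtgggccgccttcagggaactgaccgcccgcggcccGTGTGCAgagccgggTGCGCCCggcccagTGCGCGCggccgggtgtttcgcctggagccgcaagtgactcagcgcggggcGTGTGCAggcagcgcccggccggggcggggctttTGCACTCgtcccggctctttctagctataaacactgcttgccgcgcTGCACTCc
MT1X: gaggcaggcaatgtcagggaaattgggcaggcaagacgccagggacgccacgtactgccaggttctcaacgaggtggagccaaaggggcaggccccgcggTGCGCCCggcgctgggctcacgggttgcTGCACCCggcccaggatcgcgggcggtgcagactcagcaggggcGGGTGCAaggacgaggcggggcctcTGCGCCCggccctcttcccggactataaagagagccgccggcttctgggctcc
MT2A held 7 matches and MT1X held 4, and SLC30A1 held 1. One or more matches occurred in 24.8% of all windows of that length, and 4 or more in 0.37%.

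Of 15 genes of iron uptake, export and sensing tested, 3 rose, and 1, HAMP, fell, with a median log2 difference of 0.025. FTH1, the heavy chain of the iron store ferritin, had 2483, 2347 and 2538 CPM at 500 µg/mL, against 1780.4, 1974 and 1909 CPM in vehicle. The groups did not overlap (log2 change 0.38, SE 0.086, adjusted p = 0.00672), and the adjusted p was 0.064 without vehicle replicate 1. HMOX1, the enzyme that frees iron from haem, had 68.4, 63.8 and 67.9 CPM at 500 µg/mL, against 51.8, 54.0 and 54.6 CPM in vehicle (log2 change 0.32, SE 0.048, adjusted p = 3.4e-05). TFRC, the transferrin receptor, rose by 0.13 (adjusted p = 0.0189), and 5 of the 6 analyses that left out 1 library lost its call. FTH1 and HMOX1 are also targets of NRF2, the regulator of antioxidant genes. Of 25 NRF2 targets tested, 5 rose and 0 fell, 20.0% called against 3.61% of all genes tested, with a median log2 difference of −0.006. The other 3 were GCLM (0.22), which makes glutathione, the canalicular exporter ABCC2 (0.21) and TKT (0.16). Without replicate 1 of the treatment 2 of the 25 were called. The autophagy receptor SQSTM1 had 281, 269.6 and 275 CPM at 500 µg/mL, against 222, 235 and 239 CPM in vehicle (log2 change 0.25, adjusted p = 9.06e-05).

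Genes of cell division were slightly lower at 500 µg/mL. Of 24 genes of mitosis and chromosome segregation, 11 fell and 0 rose, and all 24 had a log2 difference below 0, with a median of −0.15 and a range of −0.29 to −0.052. Of 24 genes of DNA replication, 7 fell and 0 rose, and all 24 were below 0, with a median of −0.12. PTTG1 (securin), which keeps the protease separase inactive until anaphase, had 47.3, 47.3 and 48.9 CPM at 500 µg/mL, against 58.4, 59.7 and 57.3 CPM in vehicle (log2 change −0.29, adjusted p = 0.00021). HMMR, a spindle protein, averaged 47.6 ± 2.42 CPM at 500 µg/mL and 56.5 ± 1.99 CPM in vehicle (SD, n = 3 each, log2 change −0.25, adjusted p = 0.00236). PCNA, the clamp of DNA polymerases, had 337, 338 and 336 CPM at 500 µg/mL, against 398, 388 and 393 CPM in vehicle (log2 change −0.22, adjusted p = 0.00287). RFC4, a subunit of the clamp loader, fell by 0.27 (adjusted p = 0.00278, and 0.0589 without vehicle replicate 2), and GINS2, part of the replicative helicase, fell by 0.20 (adjusted p = 0.00694).

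The count of mitosis genes was 7 with the GC correction, and it was lowest, 4, without replicate 1 of the treatment. It was 5 and 6 without vehicle replicates 1 and 2, 6 and 7 without replicates 2 and 3 of the treatment, and 18 without the 3 libraries that stand apart. The count of replication genes was 8 with the GC correction, 4 without vehicle replicate 2 and 10 without the 3 libraries. None of 22 p53 targets and none of 10 replication-dependent histones tested was called, and their medians were −0.02 and 0.03. Of all genes tested 3.61% were called, a share at which lists this short can hold none.

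The amino acid response, in which the factor ATF4 drives enzymes of amino acid supply, was lower for a few members. Of 27 tested, 5 fell and 1 rose, with a median of −0.057. ASNS, which makes asparagine, had 31.7, 30.7 and 30.8 CPM at 500 µg/mL, against 47.0, 44.4 and 40.2 CPM in vehicle. The log2 change was −0.50 (SE 0.055, adjusted p = 4.97e-08), and the call held under all 16 alternatives. ASNS is among the largest falls, for which no overlap between the groups was a condition. PSAT1, an enzyme of serine synthesis, had 280.2, 287 and 281 CPM at 500 µg/mL, against 326, 324 and 325 CPM in vehicle (log2 change −0.20, adjusted p = 0.000108). NUPR1, a stress-induced chromatin protein, fell by 0.28, and it was no longer called without vehicle replicate 1 or 2 or without replicate 2 or 3 of the treatment (adjusted p between 0.0622 and 0.105). CEBPG and MTHFD2 fell by 0.18 and 0.17, and both lost their calls with the GC correction. The member that rose, GDF15, a secreted stress factor, averaged 164 ± 3.34 CPM at 500 µg/mL and 141 ± 9.30 CPM in vehicle (SD, n = 3 each, log2 change 0.22, adjusted p = 0.0169), and its call was lost without vehicle replicate 1 or 2 or replicate 3 of the treatment. With 1 library left out, 3 to 6 members of the list were called, and 3 without vehicle replicate 2 or replicate 3 of the treatment and 4 without vehicle replicate 1 or replicate 2 of the treatment.

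The upstream sequence of ASNS is shown because the element through which ATF4 acts on this gene, TGATGAAAC, lies in it, 68 to 60 bases before the start (chr7:97872409-97872658, minus strand, RefSeq, GRCh38.p14; element in capitals, given 5′ to 3′ on the gene's strand). The start meant is 1 of 2 annotated for ASNS, and the window before the other (chr7:97872166-97872415) held no match.
ASNS: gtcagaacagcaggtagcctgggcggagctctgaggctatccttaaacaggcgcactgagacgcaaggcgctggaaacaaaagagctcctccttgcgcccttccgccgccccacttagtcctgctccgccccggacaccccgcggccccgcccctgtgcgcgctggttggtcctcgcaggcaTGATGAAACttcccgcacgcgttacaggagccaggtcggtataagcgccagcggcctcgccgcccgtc
The element, searched on both strands, was found in 0.196% of all windows of that length.

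Some plasma proteins of the acute phase were higher. Of 17 acute phase genes tested, 5 rose, and 1, HAMP, fell. Fibrinogen, the precursor of the clot, is made of 3 chains whose genes lie side by side on chromosome 4, and all 3 rose. FGA had 1184, 1158 and 1163 CPM at 500 µg/mL, against 1003, 962 and 1021 CPM in vehicle (log2 change 0.23, SE 0.035, adjusted p = 4.35e-05). FGB averaged 312 ± 5.04 CPM at 500 µg/mL and 279 ± 6.84 CPM in vehicle, and FGG averaged 1212 ± 39.3 CPM at 500 µg/mL and 1066 ± 45.4 CPM in vehicle (SD, n = 3 each). Their log2 changes were 0.16 (adjusted p = 0.00294) and 0.18 (adjusted p = 0.0107). CP (ceruloplasmin), the copper-carrying ferroxidase of plasma, averaged 82.1 ± 1.99 CPM at 500 µg/mL and 68.8 ± 4.79 CPM in vehicle (log2 change 0.26, adjusted p = 0.00616). Without vehicle replicate 2 the calls of FGB, FGG and CP were lost (adjusted p = 0.0546, 0.145 and 0.102) and FGA was the 1 acute phase gene called higher. The call of FGG was also lost without replicate 1 or 2 of the treatment, and in each of these analyses 3 acute phase genes were called higher. Of 19 genes of coagulation, the fibrinogen chains were the 3 called.

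Genes of fat oxidation and fasting metabolism rose in small number. Of 17 genes of fatty acid oxidation and PPAR alpha, the nuclear receptor of fasting, 4 rose and 0 fell, with a median of 0.069. CREB3L3, a liver transcription factor of the fasting response, had 11.8, 11.5 and 11.6 CPM at 500 µg/mL, against 8.17, 7.82 and 9.33 CPM in vehicle (log2 change 0.47, SE 0.088, adjusted p = 0.000941). FABP1, the fatty acid carrier of hepatocytes, had 107, 103 and 107 CPM at 500 µg/mL, against 81.7, 78.1 and 88.2 CPM in vehicle (log2 change 0.36, adjusted p = 0.00551, and 0.0704 without vehicle replicate 2). ACADVL, the first enzyme of beta-oxidation of long chains, rose by 0.24 (adjusted p = 0.00287). CPT1A, which admits fatty acids to mitochondria, rose by 0.22, and its call was lost with the GC correction and in each of the 6 analyses without 1 library. Without vehicle replicate 2, 2 members of the list were called.

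PCK1, the rate-limiting enzyme of gluconeogenesis, had 4.74, 5.18 and 5.66 CPM at 500 µg/mL, against 3.85, 3.30 and 3.89 CPM in vehicle. The groups did not overlap (log2 change 0.49, SE 0.12, adjusted p = 0.0114), and the call was lost without vehicle replicate 2 (adjusted p = 0.121) and without replicate 3 of the treatment (adjusted p = 0.0839). It was the 1 gene called of 10 of gluconeogenesis, 10.0% against 3.61% of all genes tested. DEPP1, a target of FOXO factors, which insulin holds in check, had 20.6, 20.4 and 21.8 CPM at 500 µg/mL, against 14.3, 12.8 and 14.5 CPM in vehicle (log2 change 0.60, SE 0.079, adjusted p = 1.91e-06). NR0B2, the repressor of bile acid synthesis, had 51.8, 50.2 and 53.2 CPM at 500 µg/mL, against 42.1, 40.1 and 42.1 CPM in vehicle (log2 change 0.32, adjusted p = 0.00276). NR1H4, the bile acid receptor, was called lower, and its call was lost with the GC correction (log2 change −0.112 there, adjusted p = 0.17). None of 14 genes of the glucose response was called, and their median was 0.083. A list this short can hold no called gene at the share of 3.61% over all genes tested.

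**Figure D3:**
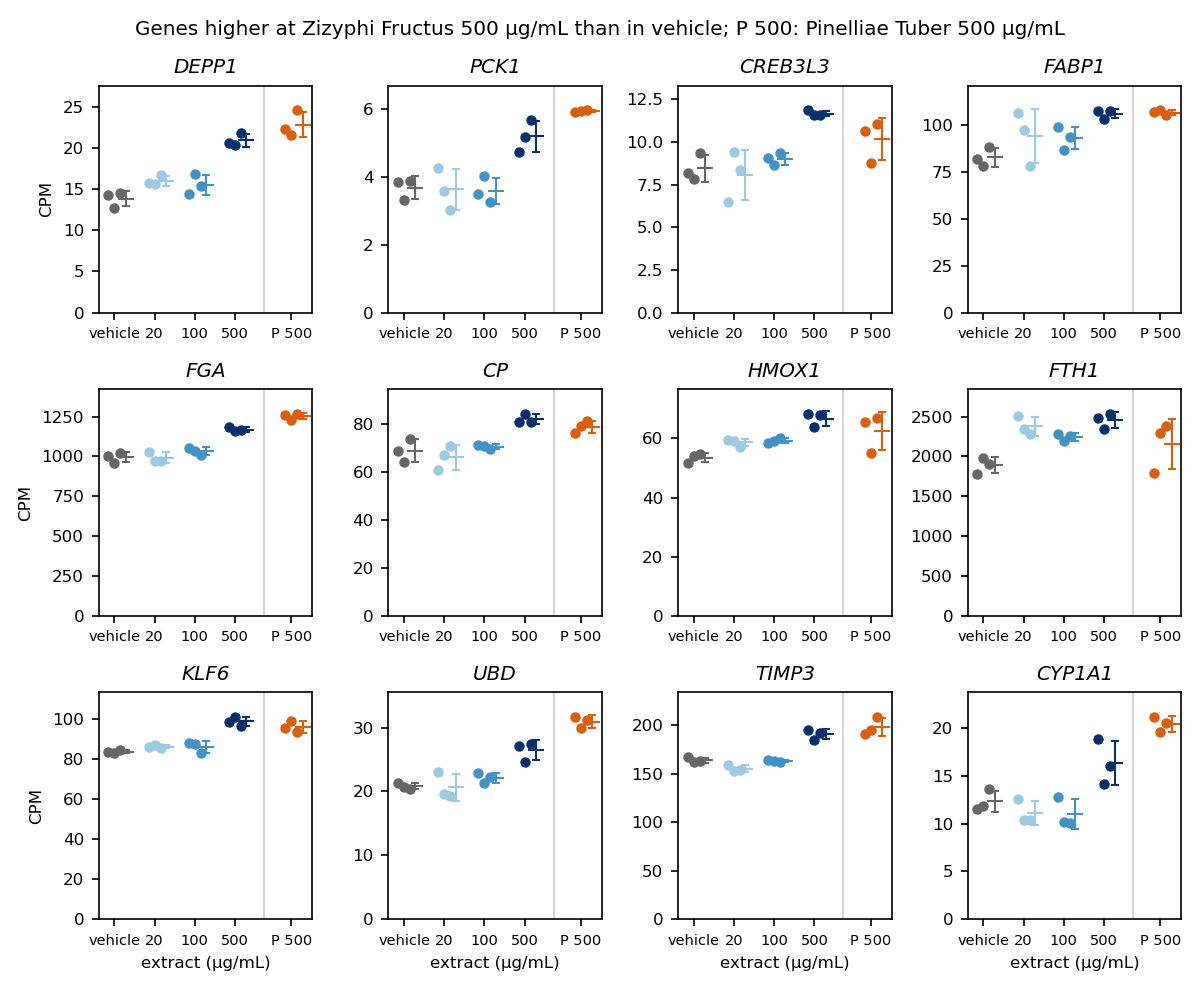
CPM in every library (points) with the mean and SD beside them (n = 3) for 12 genes higher at 500 µg/mL than in vehicle, across vehicle and Zizyphi Fructus at 20, 100 and 500 µg/mL, with Pinelliae Tuber at 500 µg/mL to the right of the grey line. PCK1, TIMP3, KLF6 and CYP1A1 lie near the vehicle level at 20 and 100 µg/mL, while the FTH1 means at all 3 doses are above the vehicle mean.

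Among regulators of early responses, 5 of 21 immediate early genes rose and 0 fell, with a median of 0.065. KLF6, a zinc finger factor of the immediate early class, had 98.7, 101 and 96.7 CPM at 500 µg/mL, against 83.3, 83.1 and 84.5 CPM in vehicle (log2 change 0.24, SE 0.036, adjusted p = 3.14e-05). JUN, a subunit of AP-1, averaged 35.5 ± 1.81 CPM at 500 µg/mL and 28.9 ± 2.24 CPM in vehicle (SD, n = 3 each, log2 change 0.30, adjusted p = 0.00366, and 0.0655 without vehicle replicate 1). The calls of JUNB, JUND and FOSL2 were lost with the GC correction, and JUNB and JUND have GC contents of 64.9% and 69.7%. With any 1 of the 6 libraries left out 1 to 3 of the 21 genes were called, and 1 without vehicle replicate 1. Of 15 targets of NF-kappaB, the inflammatory transcription factor, 4 rose and 0 fell, and 1 was called without vehicle replicate 2 and 2 without replicate 3 of the treatment. UBD, a ubiquitin-like protein induced by cytokines, had 27.1, 24.7 and 27.5 CPM at 500 µg/mL, against 21.3, 20.6 and 20.4 CPM in vehicle (log2 change 0.35, adjusted p = 0.000416). NFKB2, a subunit of the factor, rose by 0.34 (adjusted p = 0.00316, and 0.0634 without vehicle replicate 2). RELB and ICAM1 lost their calls with the GC correction. None of 22 interferon response genes was called, against 3.61% of all genes tested, a share at which a list this short can hold none.

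**Figure D4:**
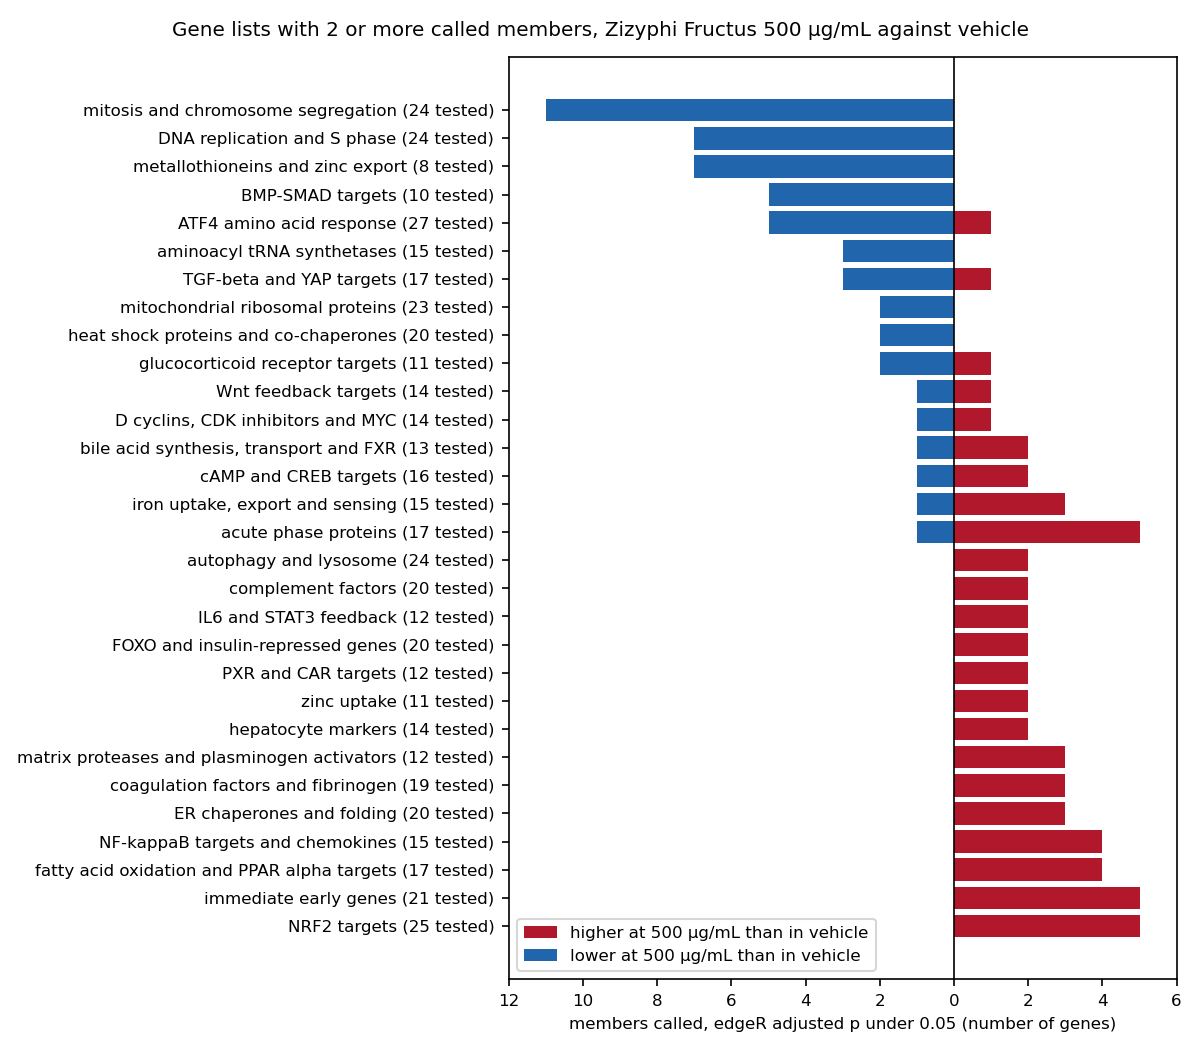
Number of members called higher (bars to the right) and lower (bars to the left) at 500 µg/mL than in vehicle, for the gene lists with 2 or more called members, with the number tested in brackets. The longest bars are those of mitosis, with 11 lower, and of DNA replication and of metallothioneins and zinc export, with 7 lower each.

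Single genes outside these groups changed by similar amounts. SCNN1A, a subunit of the epithelial sodium channel, had 14.7, 18.6 and 17.4 CPM at 500 µg/mL, against 25.4, 25.7 and 26.8 CPM in vehicle (log2 change −0.62, SE 0.076, adjusted p = 4.36e-07). S100P, a calcium-binding protein, had 34.7, 30.2 and 30.5 CPM at 500 µg/mL, against 52.7, 52.3 and 46.0 CPM in vehicle (log2 change −0.66, SE 0.13, adjusted p = 0.00214). CYP24A1, which inactivates vitamin D, had 30.7, 32.7 and 35.1 CPM at 500 µg/mL, against 44.1, 46.6 and 43.3 CPM in vehicle (log2 change −0.45, SE 0.066, adjusted p = 3.01e-05). SCNN1A and S100P were taken from the largest falls, for which no overlap between the groups was a condition. For CYP24A1 the libraries of both groups did not overlap either.

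CYP1A1, the cytochrome P450 induced through the aryl hydrocarbon receptor, had 18.8, 14.2 and 16.0 CPM at 500 µg/mL, against 11.5, 11.9 and 13.6 CPM in vehicle (log2 change 0.41, SE 0.11, adjusted p = 0.018). It was the 1 gene called of 10 targets of that receptor, 10.0% against 3.61% of all genes tested. The call of CYP1A1 was lost in 4 of the 6 analyses without 1 library (adjusted p up to 0.181). TIMP3, an inhibitor of matrix proteases, had 195, 185 and 193 CPM at 500 µg/mL, against 167, 162 and 163 CPM in vehicle (log2 change 0.22, adjusted p = 9.06e-05). TUBA1A, an alpha tubulin, averaged 22.2 ± 0.658 CPM at 500 µg/mL and 16.8 ± 0.533 CPM in vehicle (SD, n = 3 each, log2 change 0.40, adjusted p = 6.17e-05). ALDH2, which clears acetaldehyde, fell by 0.22 (adjusted p = 0.00021), GSTA1, a glutathione transferase, by 0.25 (adjusted p = 0.00289), and NKD1, a feedback inhibitor of Wnt signals, by 0.20 (adjusted p = 0.000841). SP5, also a Wnt target, was called higher, and its call was lost with the GC correction (log2 change 0.173 there, adjusted p = 0.258). DUSP8, a MAP kinase phosphatase, rose by 0.59 (adjusted p = 0.002).

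The largest rises by fold were in transcripts of low level or uncertain origin. UQCRFS1P1, a processed copy of the respiratory chain gene UQCRFS1, had 2.96, 2.79 and 3.44 CPM at 500 µg/mL, against 0.0771, 0.152 and 0.481 CPM in vehicle. Its log2 difference was 3.69 (adjusted p = 0.00504), but reads could be shared with the parent gene, which averaged 96.9 CPM at 500 µg/mL and 82.7 CPM in vehicle. COMMD3-BMI1, a readthrough transcript that overlaps COMMD3 and BMI1, had 4.71, 3.51 and 5.95 CPM at 500 µg/mL, against 2.12, 1.48 and 2.28 CPM in vehicle (log2 difference 1.26, adjusted p = 0.00599, with 0.0797 without vehicle replicate 2 and 0.063 without replicate 3 of the treatment). TYMP, CITED4 and CFD, with GC contents of 68.8%, 73.5% and 68.6%, were 0.66, 0.63 and 0.65 higher, and all 3 lost their calls with the GC correction (adjusted p = 0.0584, 0.0643 and 0.126). The readthrough MSANTD3-TMEFF1 and the pseudogene EIF2S2P4 were among the largest falls and are uncertain for the same reason, and their calls were lost in 4 and 6 of the 6 analyses without 1 library. CITED4 lost its call without vehicle replicate 1 and CFD without vehicle replicate 2 or replicate 2 of the treatment.

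In the remaining lists few genes changed, and 3.61% of all genes tested were called. Among 20 genes of protein folding in the endoplasmic reticulum, 3 rose, namely XBP1, a driver of the unfolded protein response (0.19), EDEM1 (0.12) and SYVN1 (0.22), and EDEM1, at 0.12 with the GC correction too, lost its call there (adjusted p = 0.0524). Both cytosolic HSP90 genes, which encode chaperones, fell, HSP90AA1 by 0.12 and HSP90AB1 by 0.11 on the log2 scale, and no other of 20 heat shock genes was called. Of 15 aminoacyl tRNA synthetases, 3 fell, MARS1, NARS1 and YARS1, with a list median of −0.077, and NARS1 and YARS1 lost their calls with the GC correction (adjusted p = 0.0787 and 0.0915). Of 17 targets of TGF-beta and YAP, 3 fell, namely SMAD7, TGFBI and ANKRD1, and ANKRD1 lost its call with the GC correction (adjusted p = 0.169). CCND1 (cyclin D1) fell by 0.14, IGFBP1, an insulin-repressed binding protein of growth factors, rose by 0.35 (adjusted p = 0.019), and ALAS1, the first enzyme of haem synthesis, rose by 0.17 (adjusted p = 0.00326). MASP1 and MASP2, proteases that start the lectin pathway of complement, rose by 0.30 and 0.31, and they were the 2 genes called of 20 of complement. With the GC correction MASP1 was at 0.30 and its call was lost (adjusted p = 0.0554). Without vehicle replicate 2 the calls of the genes named in this group of lists were lost (adjusted p between 0.0577 and 0.25), except those of ALAS1, SMAD7 and TGFBI. All the genes that lost their calls there, except HSP90AB1, also lost them without at least 1 other library. The calls of CCND1, MASP1 and YARS1 were lost whichever of the libraries was left out. That of IGFBP1 was also lost without vehicle replicate 1 or replicate 1 or 3 of the treatment.

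Of 56 gene lists examined, 9 had no called member, among them 31 nuclear subunits of the respiratory chain, 27 cytosolic ribosomal proteins, 16 clock genes and 10 genes of the response to osmotic stress. With 3.61% of all genes tested called, lists of such sizes can hold no called member. Of the 15 transcripts of the mitochondrial genome, all were above vehicle, with a median of 0.22, and 1, the ribosomal RNA MT-RNR1, was called (log2 change 0.35, adjusted p = 0.0251). MT-RNR1 had 4893, 5331 and 5661 CPM at 500 µg/mL, against 4225, 4265 and 3952 CPM in vehicle. Leaving out any one of 5 of the 6 libraries ended that call, and 12 of the 15 were called without the filter on low counts.

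The extract was also given at 2 lower doses. These comparisons share the vehicle or the 500 µg/mL libraries, so their values are given side by side. Against vehicle, 49 genes were called at 100 µg/mL, 0.294% of those tested, 28 higher and 21 lower. At 20 µg/mL 331 genes were called, 1.99% of those tested, 204 higher and 127 lower. In a fit of these 2 groups alone edgeR called 0, with 1274 genes at an unadjusted p under 0.05, while DESeq2 in the fit of all libraries called 514, and with the GC correction 90 were called. The 20 µg/mL count depended on single libraries: it was 62 without its replicate 1, which stands apart from the rest of the series, and 2242 without its replicate 3. It was also 16, 56 and 140 without vehicle replicates 1, 2 and 3. The 100 µg/mL count was 4 to 22 with 1 library left out, the lowest without vehicle replicate 1.

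Between 500 and 100 µg/mL, which share the first number of the library titles, 173 genes were called, 1.04% of those tested, 116 higher and 57 lower at 500 µg/mL. The median GC content was 48.7% for the higher and 53.7% for the lower ones, against 49.9% for all genes tested. Libraries of the same replicate number deviated together between these doses, and with the replicate as a block the count was 188 in the fit of all libraries and 610 in a fit of these groups alone. With 1 library left out it was 68 to 104, the lowest without replicate 1 of the 500 µg/mL treatment. Between 500 and 20 µg/mL 1201 genes were called, 7.22% of those tested, 731 higher and 470 lower at 500 µg/mL. In a fit of these 2 groups alone 2 were called, both lower, and 4 with the replicate as a block. That count was 215 without replicate 1 at 20 µg/mL, 440 without replicate 2 at 500 µg/mL, and 3324 without replicate 3 at 20 µg/mL.

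HAMP averaged 66.0 ± 2.15 CPM in vehicle, 65.7 CPM at 20 µg/mL, 55.2 CPM at 100 µg/mL and 30.8 ± 0.75 CPM at 500 µg/mL. The 3 libraries at 100 µg/mL, with 51.0, 57.5 and 57.1 CPM, lay between the vehicle and the 500 µg/mL libraries and overlapped neither. The log2 difference was −0.84 between 500 and 100 µg/mL (adjusted p = 3.22e-12), and −0.26 between 100 µg/mL and vehicle, which was not called (adjusted p = 0.0588). Of the 10 BMP-SMAD genes, 5 were lower at 500 than at 100 µg/mL, namely HAMP, ID1, ID2, ID3 and SMAD7, with a median of −0.31. That was 50.0% of the list called, against 1.04% of all genes tested in that comparison. ID1 averaged 158 CPM in vehicle, 218 CPM at 20 µg/mL, 186 CPM at 100 µg/mL and 139.9 CPM at 500 µg/mL, and the log2 difference between 500 and 100 µg/mL was −0.41 (adjusted p = 0.000597).

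The metallothionein sum averaged 816 ± 85.6 CPM in vehicle, 814 ± 84.0 CPM at 20 µg/mL, 735 ± 32.5 CPM at 100 µg/mL and 572 ± 34.9 CPM at 500 µg/mL (SD, n = 3 each). MT1F, MT1E and MT1M were called lower at 500 than at 100 µg/mL (log2 differences −0.36, −0.36 and −1.03). At 100 µg/mL against vehicle 0 of the 8 list members were called, where 0.294% of all genes tested were called. There 7 members were below vehicle and 1 above, with a median log2 difference of −0.15. SCNN1A, CYP24A1 and SMAD7 were also lower at 500 than at 100 µg/mL, by −0.42, −0.43 and −0.34 on the log2 scale. In the other direction, CYP1A1 (0.58), PCK1 (0.52), DEPP1 (0.42), CREB3L3 (0.37), UBD (0.26), TIMP3 (0.23), KLF6 (0.20) and the fibrinogen genes FGA, FGB and FGG (0.18, 0.18 and 0.19) were called higher at 500 than at 100 µg/mL. G6PC1, which releases glucose from its phosphate, was higher at 500 than at 100 µg/mL by 0.67 (adjusted p = 0.00718), with means of 2.55 CPM in vehicle, 2.08 CPM at 20 µg/mL, 1.82 CPM at 100 µg/mL and 2.92 CPM at 500 µg/mL.

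Other genes had similar means at 100 and 500 µg/mL. ASNS averaged 43.9 CPM in vehicle, 44.7 CPM at 20 µg/mL, 30.6 CPM at 100 µg/mL and 31.1 CPM at 500 µg/mL. The log2 difference of ASNS between 500 and 100 µg/mL was 0.021, with an unadjusted 95% interval of −0.093 to 0.14, while it fell by 0.52 at 100 µg/mL against vehicle (adjusted p = 4.11e-08). FTH1 averaged 1888 CPM in vehicle, 2376 CPM at 20 µg/mL, 2242 CPM at 100 µg/mL and 2456 CPM at 500 µg/mL. The GC-rich gene CITED4 averaged 5.66 CPM in vehicle, 9.55 CPM at 20 µg/mL, 9.22 CPM at 100 µg/mL and 8.78 CPM at 500 µg/mL, and JUND averaged 56.2 CPM in vehicle, 77.4 CPM at 20 µg/mL, 72.5 CPM at 100 µg/mL and 73.5 CPM at 500 µg/mL. The intervals of the 500 against 100 µg/mL difference were −0.34 to 0.21 for CITED4 and −0.20 to 0.25 for JUND. The mitochondrial transcripts had a median of 0.22 at 100 µg/mL against vehicle and of −0.029 between 500 and 100 µg/mL.

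**Figure D5:**
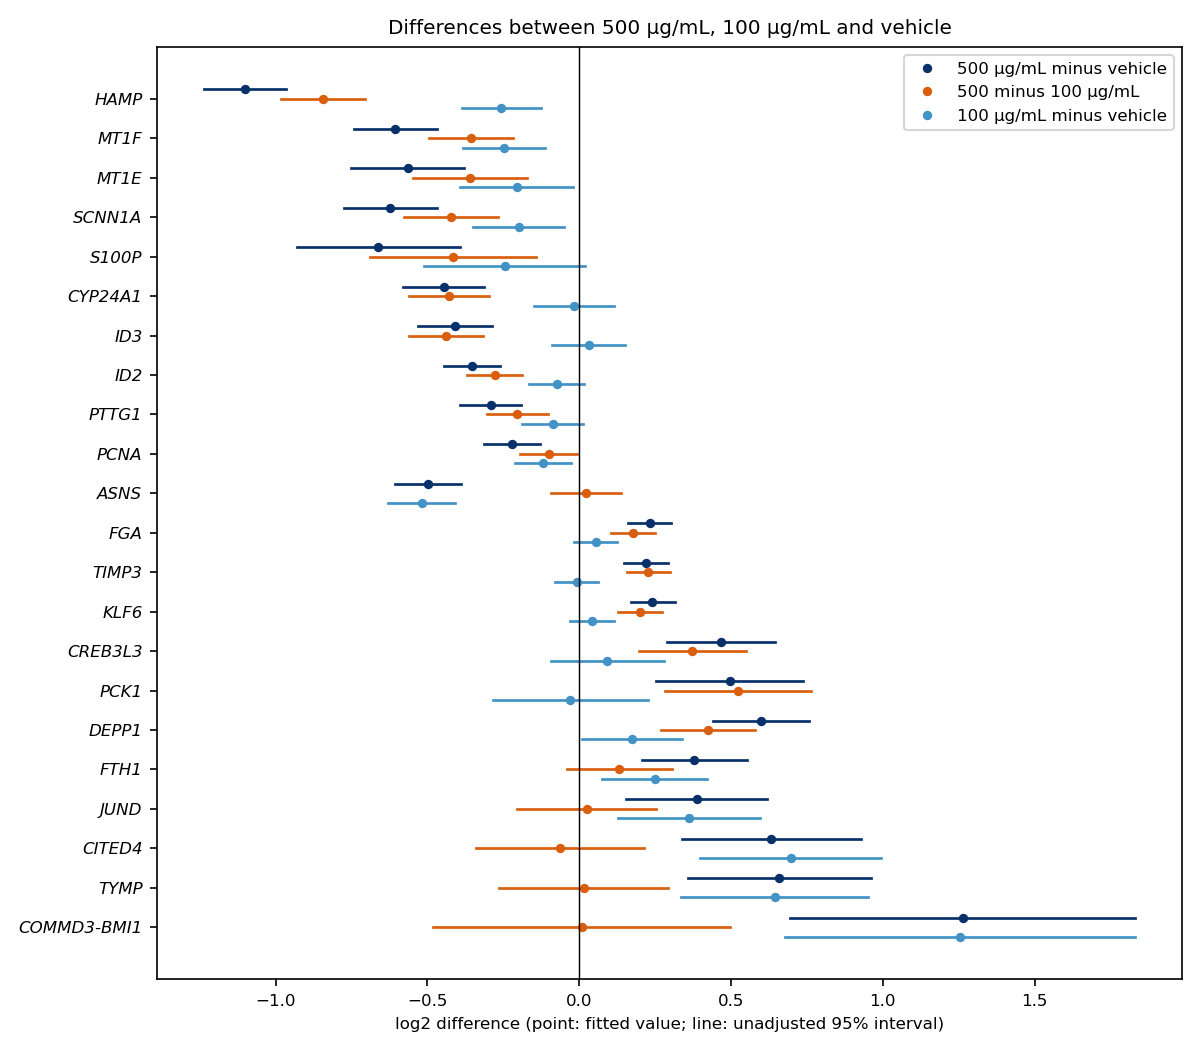
Fitted log2 differences (points) with unadjusted 95% intervals (lines) for 22 genes, for 500 µg/mL minus vehicle, 500 minus 100 µg/mL and 100 µg/mL minus vehicle. From HAMP to ID2 and from FGA to DEPP1 most of the difference from vehicle lies between 100 and 500 µg/mL, while for ASNS, JUND, CITED4, TYMP and COMMD3-BMI1 it is already present at 100 µg/mL.

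Zizyphi Fructus was also compared with Pinelliae Tuber at the same 500 µg/mL. The first number of the library titles is 4 for Zizyphi Fructus and 3 for Pinelliae Tuber. A difference tied to that number cannot be told apart from one between the extracts. Of 16641 genes, 1 was called between the 2 extracts, 0.00601% of those tested, and 578 had an unadjusted p under 0.05. DESeq2 also called 1. The gene was HAMP, with 31.1, 31.3 and 29.9 CPM under Zizyphi Fructus, against 23.7, 21.5 and 22.7 CPM under Pinelliae Tuber (log2 difference 0.44, unadjusted 95% interval 0.29 to 0.59, adjusted p = 0.0055). Zizyphi Fructus libraries were higher than all 3 Pinelliae Tuber libraries, and both extracts were below vehicle. The call was lost in 4 of the 6 analyses without 1 library, namely replicate 1 or 2 of Zizyphi Fructus and replicate 2 or 3 of Pinelliae Tuber. The metallothionein sum averaged 572 CPM under Zizyphi Fructus and 527 CPM under Pinelliae Tuber. ID3 averaged 45.1 CPM under Zizyphi Fructus and 39.8 CPM under Pinelliae Tuber, a log2 difference of 0.18 with an unadjusted 95% interval of 0.057 to 0.31, and ID1 averaged 139.9 CPM under Zizyphi Fructus and 114 CPM under Pinelliae Tuber (0.30, 0.15 to 0.45). For ASNS the difference was −0.10 (−0.21 to 0.012), for DEPP1 −0.13 (−0.27 to 0.022), for FGA −0.10 (−0.17 to −0.03) and for MT1F 0.11 (−0.035 to 0.25). None of these passed the adjusted threshold, which does not show that the extracts act alike.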

How the data were processed

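RNA was sequenced as paired reads of 100 bases from directional libraries, per the labels' protocols. The authors deposited expected counts per gene, estimated with RSEM 1.3.3 after Trim Galore 0.6.5 and STAR 2.7.3a on GRCh38, per the submitters' processing notes. Of the nonzero values 24.44% were not whole, and all were rounded to whole numbers. Of 267 columns, 59 matched samples by title and 208 were not used. Genes were filtered by edgeR 4.0.16 (filterByExpr), scaled by TMM, fitted as 20 group means over 59 libraries and tested with its quasi-likelihood test, 2-sided, with Benjamini-Hochberg adjustment over 16641 genes and a threshold of 0.05. R 4.3.3, limma 3.58.1, DESeq2 1.42.0 and Python 3.11.15 were used, and the scripts were tested on simulated data. Levels are CPM with TMM scaling. Totals ran from 21582620 to 31392112 per library, and their number limits precision.

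Alternatives were DESeq2, other scaling and filters, fits of the groups compared alone, replicate blocks, leaving out libraries, and, chosen after seeing the data, a GC correction. The libraries that stand apart were Zingiberis Rhizoma 500 µg/mL replicate 1, Pinelliae Tuber 100 µg/mL replicate 3 and Zizyphi Fructus 20 µg/mL replicate 1. No label marks them, so their choice rests on the data. Symbols were found for 41209 identifiers, and coordinates from GENCODE 29 for 57055. Promoter windows are the 250 bases before RefSeq starts on GRCh38.p14.

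Between 500 and 100 µg/mL, libraries with the same replicate number deviated together (Pearson correlations of 0.17, 0.25 and 0.11 across genes, which are not independent), and this check of the data, not a label, is the source of the pairing there.

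Genes were named by rule: among called genes with a symbol, at least 1 CPM in a group and no overlap between groups, the 15 largest rises and falls against vehicle and the 5 of each in the other comparisons, with up to 4 called members of each list, or its largest difference where none was called. TKT, CEBPG, MTHFD2, FOSL2 and the genes given as not called were named after their values were seen. Not every gene that the rule names is reported here. The members and lists were chosen with earlier results of these data known.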

Additional observations from a re-analysis of the deposited data

How the results depend on the processing

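Against vehicle, the count of 601 genes at 500 µg/mL was 1637 in a fit of the 2 groups alone, 1237 without the 3 libraries that stand apart, 1370 with a replicate block in the 2 groups alone, and 181 to 474 with 1 library left out. At 100 µg/mL against vehicle, the count of 49 was 105 with DESeq2, 419 without a filter on low counts, 434 in the fit of the 2 groups, 364 without the 3 libraries, 238 with the replicate block in the 2 groups, 23 with the GC correction, 28 with the GC correction and the replicate block, and 4 to 22 with 1 library left out. At 20 µg/mL against vehicle, the count of 331 was 514 with DESeq2, 829 without a filter, 90 with the GC correction, 98 with the GC correction and the block, and 16 to 2242 with 1 library left out. In edgeR fits of these 2 groups alone it was 0, with 1274 genes at an unadjusted p under 0.05, and 0 with the replicate block, with 1042. Between 500 and 100 µg/mL, the count of 173 was 330 without the 3 libraries, 610 with the replicate block in the 2 groups, and 68 to 104 with 1 library left out. Between 500 and 20 µg/mL, the count of 1201 was 2 in the fit of the 2 groups, 4 with the replicate block there, 366 without the 3 libraries, and 215 to 3324 with 1 library left out. Between Zizyphi Fructus and Pinelliae Tuber, the count of 1 was 62 without a filter, 2 in the fit of the 2 groups and with the block there, 3 without the 3 libraries, 2 with the GC correction and 2 with the GC correction and the block. It was 0 to 1 with 1 library left out, and where edgeR called 0, between 555 and 600 genes had an unadjusted p under 0.05. The cause of these shifts was not tested. With the replicate block in the fit of all libraries the 6 counts were 641, 42, 366, 188, 1252 and 1. Against vehicle, same-numbered libraries at 500 µg/mL correlated at 0.02, 0.02 and 0.094, so their numbers were not taken as pairs. Of 112 named genes called against vehicle, none changed direction under the alternatives that gave the gene an adjusted p, and 33 were called under each of those. Not every alternative gave one for every gene: UQCRFS1P1, for example, had 15.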
